A study of Rattus norvegicus with 8 samples.

Results

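Mmp9 and Mmp12 are 2 secreted matrix metalloproteinases, and their mRNA was followed here in primary rat chondrocytes under 4 treatments. Mmp9 is gelatinase B, which cuts denatured collagens and basement membrane collagen. Mmp12 is macrophage elastase, which cuts elastin and other matrix proteins. Their members were chosen by name alone, as all probe sets whose annotation gave Mmp9 or Mmp12 and no other gene. This rule found 3 of the 31099 probe sets on the array. Mmp9 was read by 1398275_at and by 1369166_at, and Mmp12 by 1368530_at.

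The cells came from the femoral condyles of neonatal Sprague Dawley rats 1 day old, and were grown as monolayers and serum-starved overnight. They were pretreated for 30 min with the solvent DMSO or with U0126, which inhibits the kinases MEK1/2 and so the activation of ERK1/2. Vehicle (BSA) or TNFα at 30 ng/ml was then added for 24 h. The groups are DMSO, U0126, TNFα, and U0126 with TNFα. All groups had the same solvent, and none carried a genetic change. Each group had 1 Affymetrix RAT230_2.0 array per experiment, and there were 2 independent experiments and so 8 arrays. The comparison asks whether the induction of both proteinases by TNFα needs signalling through MEK/ERK.

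Metalloproteinases are made as inactive precursors that are cut to become active, and are held in check by tissue inhibitors (TIMPs). In developing bone, Mmp9 is known for its part in the invasion of calcified cartilage by vessels, where osteoclasts and related cells make most of it. Mmp12 was first described in macrophages. TNFα is an inflammatory cytokine that induces proteinases in joint cells through NF-κB, JNK, p38 and ERK. Several metalloproteinase genes lie side by side and carry a binding site for AP-1, a dimer of Fos and Jun proteins, close upstream of their start sites. ERK signalling raises the amount and activity of AP-1 and of ETS factors.

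The Mmp12 gene lies within this cluster, and its upstream sequence is shown because it holds such a site. The 250 bases before the annotated start, on the plus strand at chr8:12866402-12866651 of the rat build GRCr8 (RefSeq), are given 5′ to 3′ with the AP-1 match in capitals.
Mmp12 upstream: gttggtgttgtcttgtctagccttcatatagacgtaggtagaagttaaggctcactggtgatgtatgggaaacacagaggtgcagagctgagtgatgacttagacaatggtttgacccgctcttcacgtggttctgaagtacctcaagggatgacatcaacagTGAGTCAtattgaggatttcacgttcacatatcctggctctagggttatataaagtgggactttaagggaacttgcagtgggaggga
Motifs were searched on both strands in windows of 300 bases, 250 before and 50 after each annotated start. The AP-1 motif TGANTCA matched 1 time in the Mmp12 window, with its first base 87 bases before the start. It was found in 7.33% of 33469 rat windows. PEA3 type ETS (AGGAAG, 34.5% of windows), EGR (GCGNGGGCG, 4.98%), GC box (GGGCGG, 33.1%), RUNX (TGTGGT, 17.3%) and the NF-κB consensus (4.18%) had no match in the Mmp12 window. The EGR and GC box motifs share letters and can overlap. A match is a run of letters and says nothing of binding, and no match says only that the letters are not in this window.

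Among 17 metalloproteinases with a window, 7 held an AP-1 match and 8 a PEA3 match. Mmp9 had no window in the sequences used, so it is not among the 17 and was not searched. Mmp3 and Mmp13, which share the cluster with Mmp12 and rose with TNFα, held 1 AP-1 match each, and so did Mmp10, which lies in the same cluster. Mmp3 and Mmp13 also held 1 PEA3 match each, whereas Mmp12 and Mmp10 held 0. The other metalloproteinases with an AP-1 match were Mmp1, Mmp7 and Mmp20, also on chromosome 8. The AP-1 matches of Mmp12, Mmp3, Mmp13 and Mmp10 are shown with 11 bases on either side, read on the plus strand of GRCr8.
Mmp12, chr8:12866554-12866582: gacatcaacagTGAGTCAtattgaggatt
Mmp3, chr8:12925199-12925227: ggaagcaattaTGAGTCAgtttgcgggtg
Mmp13, chr8:12782752-12782780: accccaagtggTGACTCAtcactattgct
Mmp10, chr8:12974635-12974663: tagcacccacaTGAGTCAtgcttagtgac
The distances to the start were 87 bases in Mmp12, 71 in Mmp3, 66 in Mmp13 and 61 in Mmp10. Mmp12, Mmp3 and Mmp10 carried the same 7 letters, whereas Mmp13 carried their reverse complement.

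TNFα raised both genes, and both TNFα arrays lay above all 6 other arrays for each of the 3 probe sets. This pattern was found for 4.88% of the 31042 probe sets tested. Levels are given as intensities on a linear scale after each array was centred on its median, so that ratios between arrays are the folds reported, and they are not compared between probe sets.

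For Mmp9, the DMSO arrays of probe set 1398275_at read 91.3 and 124 (experiments 1 and 2), the U0126 arrays 90.0 and 75.6, the TNFα arrays 265 and 444, and the arrays of both agents 94.2 and 113. The lower TNFα array was above the highest other array, the arrays of DMSO and of both agents overlapped, and the U0126 arrays lay just under these. TNFα over DMSO was 2.90-fold and 3.59-fold, a log2 change of 1.69 (SE 0.20, 95% interval 1.21 to 2.17, adjusted p = 0.00765, limma). The group means were 354.6 ± 126.4 with TNFα and 107.5 ± 22.9 with DMSO (SD, n = 2).

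In the other Mmp9 probe set, 1369166_at, the DMSO arrays read 67.2 and 80.7, the U0126 arrays 69.6 and 59.0, the TNFα arrays 123 and 158, and the arrays of both agents 67.0 and 82.0. The TNFα arrays stood apart here too, and the other 3 treatments overlapped. Its log2 change with TNFα was 0.92 (SE 0.14, adjusted p = 0.0172, limma), or 1.83-fold and 1.95-fold. This was 0.54 times the log2 change of the first probe set. The gene was given by 1398275_at, which has the higher mean. Both Mmp9 probe sets lay among the 40% with the lowest mean intensity on these arrays, with 23.1% and 14.4% of probe sets below them, and Mmp12 lay just above, with 41.3% below it. No call of presence was used, so a low level is not known to lie above background.

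For Mmp12, the DMSO arrays read 161 and 326, the U0126 arrays 144 and 163, the TNFα arrays 814 and 551, and the arrays of both agents 209 and 219. The experiments differed most in the DMSO arrays, where experiment 2 was the higher, and in the TNFα arrays, where experiment 1 was. The TNFα arrays stood apart, and the DMSO arrays overlapped with the U0126 arrays and spanned those of both agents. TNFα over DMSO was thus 5.04-fold in experiment 1 and 1.69-fold in experiment 2. The log2 change was 1.55 (SE 0.31, 95% interval 0.82 to 2.28, adjusted p = 0.0398, limma). The means were 682.8 ± 186 with TNFα and 243.6 ± 116 with DMSO (SD, n = 2). This call lay close to the threshold and was held in 6 of 17 alternative fits. It was lost in fits without DMSO replicate 1 (0.99), without TNFα replicate 1 (1.06), without U0126 replicate 1 or 2 and without U0126 with TNFα replicate 1 or 2 (1.55 each).

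All 3 probe sets passed the test for TNFα over DMSO. Over the whole array 3.43% of probe sets passed in this direction and 1.76% in the other. By 1398275_at the call of Mmp9 was held in 14 of 16 alternative fits, and its adjusted p was 0.0606 without DMSO replicate 1. By 1369166_at it was held in 12 of 16, and its adjusted p was 0.0844 without DMSO replicate 1, 0.0709 without DMSO replicate 2 and 0.0626 without TNFα replicate 2. The log2 change by 1398275_at was between 1.33 and 1.99 over these fits, and that of Mmp12 between 0.99 and 2.11. In cultures such as these, a change in the number of cells that make a transcript and one in its amount per cell cannot be told apart.

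**Figure D1:**
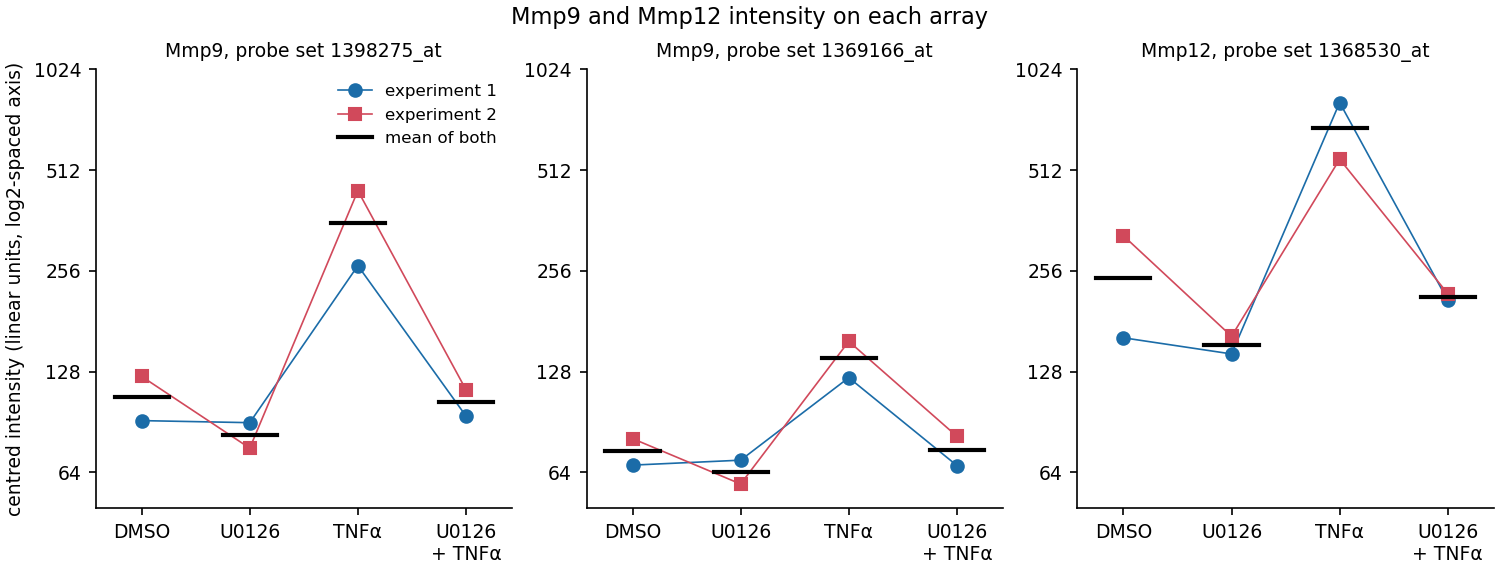
Centred intensity (linear units on a log2-spaced axis) of the 3 probe sets on each of the 8 arrays, by treatment, with circles and squares for experiments 1 and 2 and black bars for the mean of both. In each panel both TNFα arrays lie above the 6 other arrays.

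U0126 alone left both genes with no call. U0126 over DMSO was 0.986-fold and 0.611-fold for Mmp9 (log2 change −0.37, SE 0.20, adjusted p = 0.466, limma) and 0.895-fold and 0.501-fold for Mmp12 (log2 change −0.58, SE 0.31, adjusted p = 0.451). The second Mmp9 probe set was at 1.03-fold and 0.732-fold (adjusted p = 0.548). Experiment 1 was near its DMSO level for all 3 probe sets, whereas experiment 2 was lower in each. Of all probe sets, 0.058% passed in this comparison. The 95% interval on the log2 scale ran from −0.85 to 0.12 for Mmp9 and from −1.31 to 0.15 for Mmp12. The log2 change of Mmp12 was −1.14 without DMSO replicate 1 and −0.019 without DMSO replicate 2, and that of Mmp9 was −0.73 without U0126 replicate 1 and 0.00097 without U0126 replicate 2.

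In the presence of U0126, TNFα gave a response that did not pass the test for either gene. U0126 with TNFα over U0126 was 1.05-fold and 1.49-fold for Mmp9 (log2 change 0.32, SE 0.20, 95% interval −0.16 to 0.80, adjusted p = 0.585, limma). For Mmp12 it was 1.446-fold and 1.34-fold (log2 change 0.48, SE 0.31, 95% interval −0.25 to 1.21, adjusted p = 0.593). The second Mmp9 probe set was at 0.964-fold and 1.39-fold (adjusted p = 0.608). Over all probe sets, 1.22% passed here. The intervals allow responses of up to 1.75-fold for Mmp9 and 2.31-fold for Mmp12. The Mmp12 response passed when only the arrays of these treatments were fitted (adjusted p = 0.0247).

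Against TNFα alone, U0126 with TNFα passed as lower for 1 of the 2 Mmp9 probe sets and not for Mmp12. U0126 with TNFα over TNFα was 0.355-fold and 0.254-fold for Mmp9, a log2 change of −1.73 (SE 0.20, 95% interval −2.22 to −1.25, adjusted p = 0.0398, limma). The second Mmp9 probe set was at 0.546-fold and 0.520-fold (log2 change −0.91, SE 0.14), which did not pass (adjusted p = 0.0705). Mmp12 was at 0.256-fold and 0.397-fold (log2 change −1.65, SE 0.31, 95% interval −2.38 to −0.92), and did not pass either (adjusted p = 0.0992). All 3 probe sets were lower with U0126 in both experiments. The call of Mmp9 was held in 7 of 16 alternative fits, and Mmp12 passed in 2 of 17, among them the fit without TNFα replicate 2 (log2 change −2.14, adjusted p = 0.0297).

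A fall in this comparison was uncommon. It was called for 0.122% of all probe sets, 38 in number. Of the 1064 probe sets that rose with TNFα, 30 were called lower with U0126 and TNFα than with TNFα, and 1 of the 3 given here, 1398275_at, was among them. This comparison shares the TNFα arrays with that of TNFα over DMSO.

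Set against DMSO, the cultures given U0126 and TNFα had levels near those of untreated cells. The folds were 1.03 and 0.912 for Mmp9 (log2 change −0.04, SE 0.20, 95% interval −0.53 to 0.44), 0.997 and 1.02 for its second probe set, and 1.29 and 0.671 for Mmp12 (log2 change −0.10, SE 0.31, 95% interval −0.83 to 0.63). None passed (adjusted p = 0.919, 0.976 and 0.873, limma), whereas 3.11% of all probe sets did. The sign of these small changes turned when single arrays were left out.

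The response to TNFα with U0126 minus that without was tested as an interaction. It was −1.37 on the log2 scale for Mmp9 (SE 0.29, 95% interval −2.05 to −0.69), −0.71 for its second probe set (SE 0.20) and −1.07 for Mmp12 (SE 0.43, 95% interval −2.10 to −0.04). The adjusted p was 0.4997, 0.507 and 0.538 (limma), so the difference did not pass for any. In this test limma called 0 of 31042 probe sets (0%), while 2836 had an unadjusted p under 0.05. By unadjusted p, 1398275_at stood at place 108 of all probe sets, 1369166_at at 571 and Mmp12 at 2516. The difference for Mmp12 was −0.51 without DMSO replicate 1, −0.58 without TNFα replicate 1 and −1.63 without DMSO replicate 2, and that for 1369166_at was −0.44 without U0126 replicate 1.

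Expressed as a share of the log2 response to TNFα, U0126 left 4.23% and 31.4% of it for Mmp9 in experiments 1 and 2, and 22.8% and 55.7% for Mmp12. The shares were −6.10% and 49.0% for the second Mmp9 probe set, where the negative value means that TNFα gave no rise in the presence of U0126. For Mmp12 the share also moved with the response to TNFα alone, which was 5.04-fold in experiment 1 and 1.69-fold in experiment 2. For Mmp9 in experiment 2 the share was counted from a U0126 array below its DMSO array (75.6 against 124 by 1398275_at). Over DMSO, both agents together were at 0.912-fold there.

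**Figure D2:**
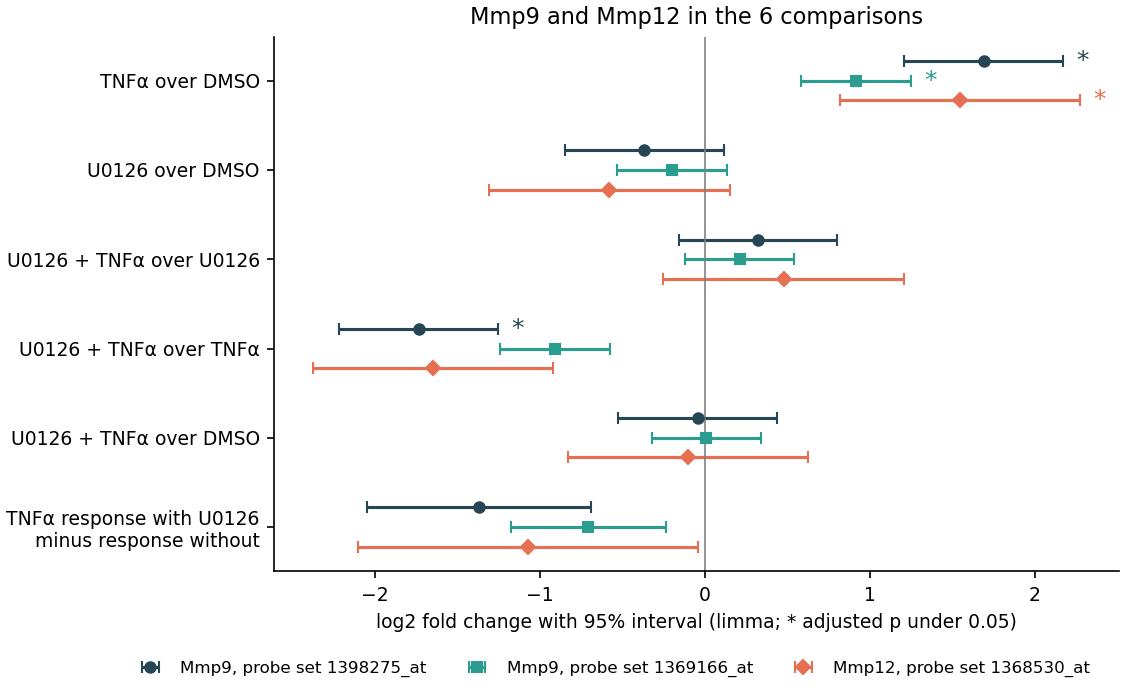
Log2 fold change with its 95% interval (limma, 8 arrays) of the 3 probe sets in the 6 comparisons, with a star where the adjusted p was under 0.05. The 3 stars for TNFα over DMSO and the 1 for U0126 with TNFα over TNFα, for 1398275_at, are the calls, and the intervals for U0126 over DMSO and for both agents over U0126 or over DMSO span 0.

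For the arrays, the methods of the study use a rule on folds with no p. A probe set counts as TNFα-regulated when it changes at least 1.45-fold the same way in both experiments, and as MEK/ERK dependent when its response in the presence of U0126 is then under 1.45-fold in both. All 3 probe sets were TNFα-regulated, as were 1.66% of probe sets in the upward direction. Mmp12 and the second Mmp9 probe set were dependent, a class that held 0.358% of all probe sets. The first Mmp9 probe set was not, because its fold in experiment 2 was 1.49. Mmp12 was just inside, at 1.446 in experiment 1. At a threshold of 1.3-fold none of the 3 was dependent, and at 2-fold 1 was TNFα-regulated, 1398275_at, and dependent. The 2 Mmp9 probe sets were therefore placed in different classes by values that lie close to the threshold, and the probe set that passed the limma test against TNFα was the one outside the dependent class. The study itself lists both genes as dependent. Its array folds over DMSO for Mmp9 are 0.87 with U0126, 1.89 with TNFα and 1.01 with both agents. These are the geometric mean folds of 1369166_at here, whereas those of 1398275_at were 0.776, 3.23 and 0.970. The study also measured both genes by quantitative PCR in independent experiments, with analysis of variance and an inactive analogue of U0126. There it reported the rise of both with TNFα as dependent on MEK/ERK. Those PCR values were not read here.

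Among the other metalloproteinases the response to TNFα was uneven. Of 24 listed, 17 were measured by a probe set of their own. With TNFα, 4 rose and 0 fell, and 13 did not pass, where 3.43% of all probe sets rose and 1.76% fell. The median log2 change was −0.03, against −0.02 over all probe sets. Besides Mmp9 and Mmp12, the stromelysin Mmp3 and the collagenase Mmp13 rose. Mmp3 was at 23.5-fold and 4.48-fold (log2 change 3.36, SE 0.66, adjusted p = 0.0376), and Mmp13 at 15.2-fold and 3.04-fold (log2 change 2.77, SE 0.57, adjusted p = 0.0433). Like Mmp12, both had the larger fold in experiment 1, whereas Mmp9 had the larger in experiment 2. The count of 4 became 0 to 2 in 12 of the alternative fits.

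With U0126 present, Mmp3 still responded to TNFα by 22.4-fold and 4.06-fold (adjusted p = 0.0843) and Mmp13 6.04-fold and 1.78-fold (adjusted p = 0.274), neither past the threshold, against 1.05 to 1.49 for Mmp9 and Mmp12. Both were above 1.45-fold in both experiments and so were independent by the fold rule. Levels with U0126 and TNFα over TNFα were 0.340-fold and 0.325-fold for Mmp3 and 0.128-fold and 0.204-fold for Mmp13, with adjusted p of 0.384 and 0.138. In U0126 alone Mmp3 read 390 and 894 against 1088 and 2498 with DMSO, and Mmp13 378 and 666 against 1176 and 1911. Both were lower with U0126 in both experiments, with no call (adjusted p = 0.391 and 0.330). Whether the responses differ between these genes was not tested.

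Only Mmp16, a membrane-type enzyme, passed in any other comparison among the measured metalloproteinases besides Mmp9. It fell with U0126 and TNFα against U0126 (0.709-fold and 0.782-fold, adjusted p = 0.0467) and against DMSO (adjusted p = 0.0157). The gelatinase Mmp2, which shares the substrates of Mmp9, was at 1.25-fold and 0.881-fold with TNFα (adjusted p = 0.730). Among the genes next to Mmp12 on chromosome 8, Mmp10 and Mmp8 were at 0.98-fold and 0.94-fold with TNFα (geometric means) and did not pass. The neighbours Mmp13, 2 genes before Mmp12, and Mmp3, 2 genes after it, rose. Mmp1b and Mmp1, between Mmp12 and Mmp10, were not measured here. Mmp10 carries the same AP-1 letters as Mmp12 and Mmp3 in the sequences shown. Mmp7, also on chromosome 8, carries these letters 80 bases before its start. It was at 1.04-fold and 0.866-fold with TNFα (adjusted p = 0.615, limma). The mean intensities of Mmp10, Mmp8 and Mmp7 were low (68.7, 87.2 and 66.6), and none is known to lie above background.

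**Figure D3:**
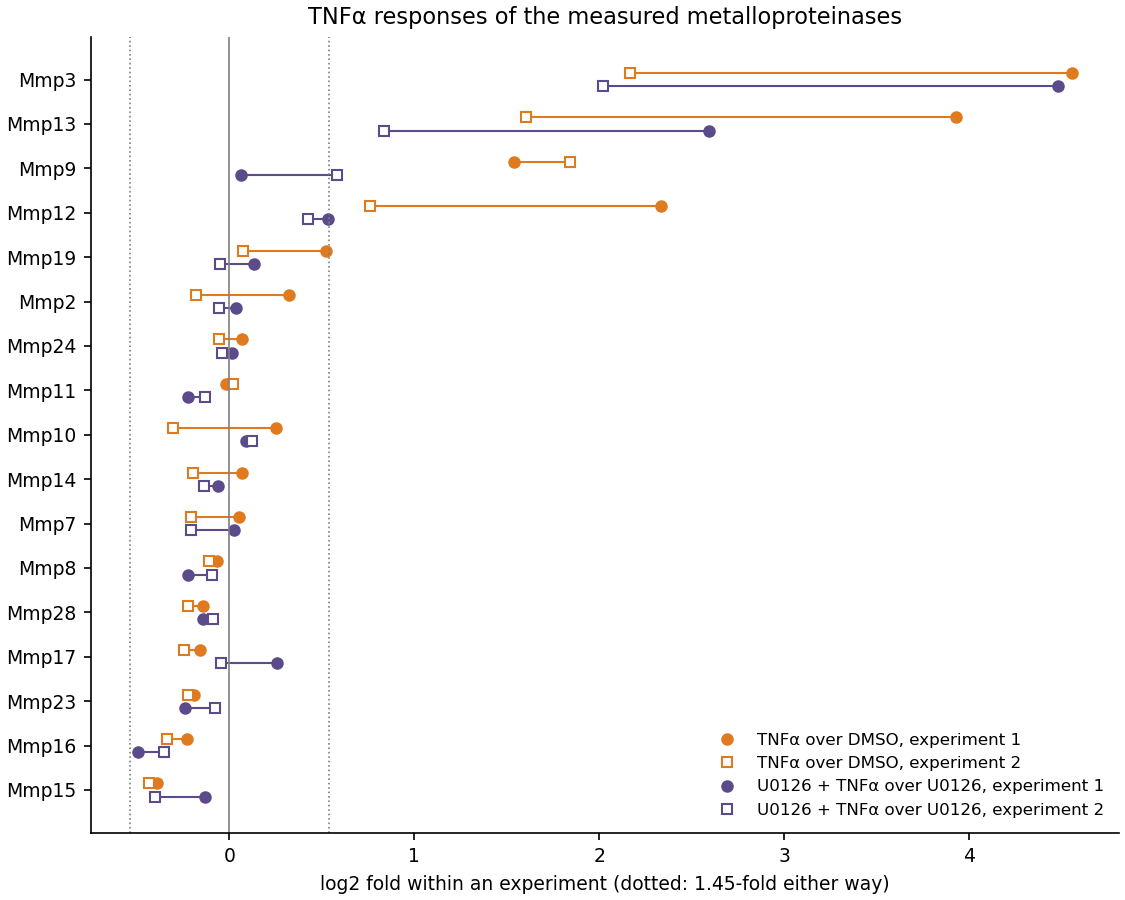
Log2 fold of 17 metalloproteinases with TNFα over DMSO (orange) and with U0126 and TNFα over U0126 (purple) in experiment 1 (filled circles) and experiment 2 (open squares), with dotted lines at 1.45-fold. The folds of Mmp3 and Mmp13 stay to the right of the line in the presence of U0126, whereas those of Mmp9 and Mmp12 are between 1.05-fold and 1.49-fold.

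The inhibitors showed 1 rise among 5 with TNFα, where 3.43% of all probe sets rose. Timp1, which binds Mmp9 tightly, was at 2.55-fold and 1.38-fold with TNFα (log2 change 0.91, SE 0.19, adjusted p = 0.0454). Its DMSO arrays read 5162 and 6165, its TNFα arrays 13149 and 8539, and the arrays of both agents 5381 each. The TNFα arrays stood above the others, and the fall to 0.409-fold and 0.630-fold with U0126 did not pass (adjusted p = 0.108). Timp2 was at 0.969-fold and 0.915-fold, Timp4 at 0.909-fold and 0.780-fold, and Reck, a membrane-anchored inhibitor, at 1.18-fold and 1.03-fold, with no call. Timp3 was at 1.16-fold and 1.10-fold with TNFα by the probe set with the highest mean, which passed in no comparison. Its 3 other probe sets rose with U0126 and TNFα over DMSO (adjusted p = 0.0244, 0.0346 and 0.0369), and the first of these also rose over U0126 (adjusted p = 0.0455). The median log2 change of the list with TNFα was 0.15.

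Of 7 genes whose products activate, bind or dock Mmp9, 4 rose with TNFα and 0 fell, with a median log2 change of 1.25. Over all probe sets 3.43% rose and 1.76% fell, with a median of −0.02. The plasminogen activators Plau and Plat, which make plasmin, rose 2.08-fold and 2.40-fold (adjusted p = 0.00311) and 4.25-fold and 2.44-fold (adjusted p = 0.00576). Cd44, a hyaluronan receptor that holds Mmp9 at the cell surface, rose 3.40-fold and 1.67-fold (adjusted p = 0.0269). The 4th was Mmp3, which can cut the precursor of Mmp9. Plau also rose in the presence of U0126, by 2.17-fold and 2.06-fold (adjusted p = 0.00888), unlike the values of Mmp9, though the difference between the genes was not tested. Lcn2, which forms a complex with Mmp9, was at 7.06-fold and 1.90-fold and did not pass (adjusted p = 0.103).

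Of 10 substrates of Mmp9 and Mmp12, 1 rose and 2 fell with TNFα, and the median log2 change was 0.24. Among all probe sets the shares were 3.43% and 1.76%. Osteopontin (Spp1) rose 8.29-fold and 2.14-fold (adjusted p = 0.0324). Aggrecan (Acan), the large proteoglycan of cartilage, fell to 0.669-fold and 0.686-fold (adjusted p = 0.00641), and elastin (Eln) to 0.535-fold and 0.654-fold (adjusted p = 0.0498). Adding U0126 to TNFα raised Acan by 1.60-fold and 1.61-fold (adjusted p = 0.0211), the opposite direction to Mmp9 on the same arrays. Fbn1, the fibrillin of elastic fibres, was at 1.26-fold and 1.19-fold with TNFα (adjusted p = 0.0614).

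Factors that are known to act on metalloproteinase genes were read at the level of their mRNA. Of 20 measured, 6 rose with TNFα, where 3.43% of all probe sets did, and 0 fell, with a median log2 change of 0.08. Of the 6 factors that rose, 4 are NF-κB subunits, Nfkb2, Relb, Nfkb1 and Rela. The others are the AP-1 subunit Junb and the ETS factor Ets1. Relb rose 3.95-fold and 3.20-fold (adjusted p = 0.000287), Nfkb2 2.66-fold and 2.71-fold (adjusted p = 0.000264), Nfkb1 1.79-fold and 1.63-fold (adjusted p = 0.00404) and Rela 1.59-fold and 1.34-fold (adjusted p = 0.0147). Junb rose 3.33-fold and 1.84-fold (adjusted p = 0.0153) and Ets1 2.84-fold and 1.78-fold (adjusted p = 0.0228). With U0126 present, 4 factors rose with TNFα and 1 fell, where 1.22% of all probe sets passed in either direction. Against TNFα alone, U0126 with TNFα lowered 1 of 20 (0.122% of all probe sets), the immediate early factor Egr2, to 0.581-fold and 0.582-fold (adjusted p = 0.0398). Its relative Egr1 was at 0.449-fold and 0.412-fold (adjusted p = 0.0554). Without TNFα, U0126 over DMSO was 0.530-fold and 0.557-fold for Egr2 (adjusted p = 0.0506, limma) and 0.354-fold and 0.357-fold for Egr1 (adjusted p = 0.0535). TNFα over DMSO was 0.965-fold and 0.826-fold for Egr2 and 1.10-fold and 0.779-fold for Egr1, so neither rose as Mmp9 did. Phosphorylation and binding of these factors are not read by arrays.

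Lists that read the pathways gave the range of action of both agents. Of 11 targets of TNFα and NF-κB, 10 rose with TNFα (median log2 change 2.57), where 3.43% of all probe sets did. In the presence of U0126, 10 rose with TNFα (2.06), where 1.22% of all passed in either direction. With U0126 and TNFα against TNFα 0 fell (−0.51), where 0.122% of all did. Nfkbia, the inhibitor IκBα, responded to TNFα by 7.66-fold and 6.19-fold, and by 7.15-fold and 5.81-fold in the presence of U0126. Tnfaip3, a brake on NF-κB, was at 6.55-fold and 5.40-fold, then 4.55-fold and 3.81-fold. Birc3, an inhibitor of cell death, was at 7.43-fold and 5.50-fold, then 4.79-fold and 4.15-fold. Of 13 genes of ERK output, 0 passed with U0126 over DMSO (median log2 change −0.25), where 0.058% of all probe sets did. With U0126 and TNFα over TNFα 0 passed (−0.21), where 78 of 31042 probe sets did. Calls were thus rare in both comparisons, and 0 of 13 does not mean no effect. In U0126 alone Egr1 was at 0.354-fold and 0.357-fold (adjusted p = 0.0535, limma) and Etv5 at 0.323-fold and 0.465-fold (adjusted p = 0.146). With U0126 over DMSO the mean log2 change was above 0 for 2 of the 13, where the median over all probe sets was −0.0016. With U0126 and TNFα over DMSO, 5 fell and 1 rose (−0.40), where 3.11% of all probe sets passed in either direction. With TNFα, Ier3 rose 4.73-fold and 2.55-fold (adjusted p = 0.00637) and Spry4, a feedback inhibitor, fell to 0.768-fold and 0.761-fold (adjusted p = 0.0275).

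Since Mmp9 and Mmp12 are known from osteoclasts and macrophages, markers of these cells were read beside them. For the labelled cell type, all 8 chondrocyte markers measured lay above the lowest 40% of probe sets, and their summed intensity was 172673 and 113564 with DMSO. It was 0.772 and 0.786 of that with TNFα, where 5 of 8 fell (1.76% of all probe sets did), and 0.980 and 1.02 with U0126 and TNFα. The markers that fell most clearly were Cnmd (0.514-fold and 0.641-fold, adjusted p = 0.00496), Matn1 (0.634-fold and 0.698-fold, adjusted p = 0.00573), Acan and Hapln1 (0.635-fold and 0.741-fold, adjusted p = 0.0265).

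Of 19 macrophage markers, 8 were in the lowest 40%, 3 rose with TNFα (3.43% of all probe sets did) and 0 fell, with a median log2 change of −0.07. The summed intensity was 6428 and 9176 on the DMSO arrays, 6185 and 7935 on the U0126 arrays, 7302 and 11093 on the TNFα arrays, and 6129 and 8412 on the arrays of both agents. It was therefore 1.14 and 1.21 of DMSO with TNFα and 0.953 and 0.917 with both agents, and it was higher in experiment 2 in every treatment. The 3 that rose were Ctss, a lysosomal protease (1.44-fold and 1.34-fold, adjusted p = 0.0182), Cd68, a lysosomal glycoprotein (2.19-fold and 1.48-fold, adjusted p = 0.0228), and Cd74, the invariant chain of class II antigen presentation (2.55-fold and 4.27-fold, adjusted p = 0.0249). Ctss was also lower with U0126 and TNFα than with TNFα (0.674-fold and 0.617-fold, adjusted p = 0.0395). Cd14 was at 1.73-fold and 1.03-fold (adjusted p = 0.153).

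The other 16 of the 19 did not pass with TNFα, and of these the following were chosen after their values were seen. Csf1r, the receptor for its growth factor, was at 0.869-fold and 1.02-fold with TNFα, Ptprc at 0.982-fold and 0.975-fold, and Itgam at 0.953-fold in both. Mrc1, the macrophage mannose receptor, read 104 and 155 on the DMSO arrays, 89.1 and 266 on the TNFα arrays, and 87.0 and 118 on the arrays of both agents. Its fold with TNFα was 0.854 in experiment 1 and 1.72 in experiment 2 (adjusted p = 0.530), so that its TNFα array was the highest in experiment 2 alone. Adgre1 (F4/80) read 30.0 and 201 on the DMSO arrays, 35.3 and 340 on the TNFα arrays, and 37.1 and 144 on the arrays of both agents. It was thus low in experiment 1 and higher in experiment 2, where its fold with TNFα was 1.69 (adjusted p = 0.311). The Mmp12 array of DMSO in experiment 2 was likewise the higher of its pair, at 326 against 161. With TNFα the order was the other way for Mmp12, which read 814 in experiment 1 and 551 in experiment 2. With both agents Mmp12 read 209 and 219, close to each other, unlike Adgre1. Mmp9, by 1398275_at, read higher in experiment 2 with DMSO (91.3 and 124), TNFα (265 and 444) and both agents (94.2 and 113). Adgre1 and Mrc1 had the same order there. With U0126 alone Mmp9 read 90.0 and 75.6, the other order from Adgre1 (33.9 and 146) and Mrc1 (83.4 and 112). The fold of Mmp9 with TNFα was larger in experiment 2 (2.90 and 3.59), as for Adgre1, Mrc1 and Cd74. For Ctss and Cd68 it was larger in experiment 1. The part of these markers in the levels of Mmp9 and Mmp12 was not tested.

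Of 5 osteoclast markers, 1 fell with TNFα, Itgb3 (0.796-fold and 0.710-fold, adjusted p = 0.0338), where 1.76% of all probe sets fell, and 0 rose. Acp5, the tartrate-resistant phosphatase, was at 1.23-fold and 0.979-fold, and Ctsk, the collagen-cutting cathepsin, at 0.991-fold and 0.893-fold. The summed intensity was 1.01 and 0.888 of DMSO. None of 3 neutrophil markers, all in the lowest 40%, none of 5 markers of hypertrophic chondrocytes, none of 4 endothelial markers, also all in the lowest 40%, and none of 4 fibroblast markers passed with TNFα. Their median log2 changes were −0.04, −0.22, −0.16 and −0.13.

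**Figure D4:**
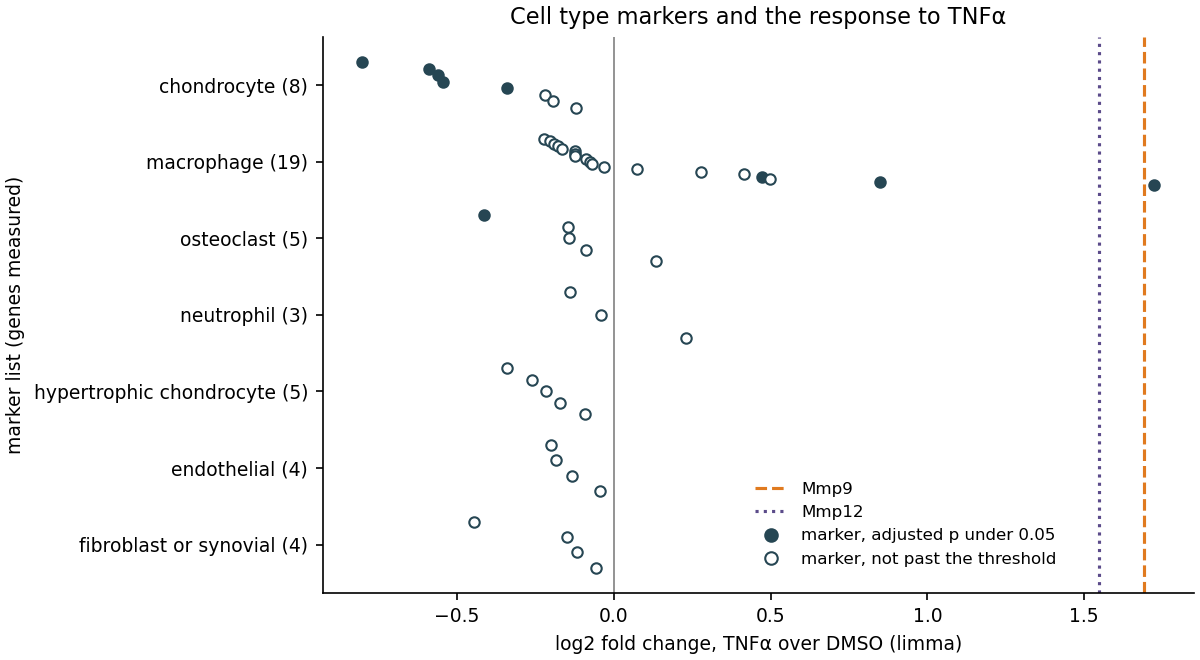
Log2 fold change with TNFα over DMSO (limma) of each measured marker of 7 cell types, filled where the adjusted p was under 0.05, with lines at the changes of Mmp9 (1.69) and Mmp12 (1.55). Among 48 markers 1, Cd74 of the macrophage list, lies as far to the right as these lines.

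The genes whose pattern was most like that of each were sought by the root mean square difference of the 6 log2 folds over DMSO, with 3 treatments in 2 experiments. There were 1137 genes whose treatment means ranged over at least 1.45-fold. Genes were chosen by these values, so the likeness is a description. The folds of an experiment share its DMSO array. Nearest to Mmp9 were the chemokines Ccl19 (0.41) and Ccl5 (0.43), Cyp7b1, an oxysterol hydroxylase (0.45), Gas7 (0.45) and Plac8 (0.45). Their folds with TNFα were between 1.95 and 5.57, and with U0126 and TNFα between 1.02 and 1.70. Unlike Mmp9, Ccl19, Ccl5 and Cyp7b1 were over 1.45-fold above DMSO in at least 1 experiment with both agents. By the same measure, the 2 probe sets of Mmp9 differed from each other by 0.47. This was more than the difference between Mmp9 and any of the genes named here, so their order says little.

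Nearest to Mmp12 was Lbp, the lipopolysaccharide binding protein, at a difference of 0.16, followed by Tmem176a (0.37), Serping1, the inhibitor of complement C1 (0.37), Gda (0.39) and Bst1 (0.41). U0126 took Lbp to folds of 0.763 and 0.538, TNFα to 4.44 and 1.64, and both agents together to 1.47 and 0.621, next to 0.895 and 0.501, 5.04 and 1.69, and 1.29 and 0.671 for Mmp12. All 5 had the larger fold with TNFα in experiment 1, as Mmp12 did. Mmp12 was at place 40 in the order for Mmp9, and Mmp9 at place 39 in that for Mmp12, with a difference of 0.61 between them. With Pearson's r over the 8 arrays in place of the difference of folds, 3 of the 5 genes named for Mmp9 were again among the first 5, and 1 of those for Mmp12, Lbp.

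**Figure D5:**
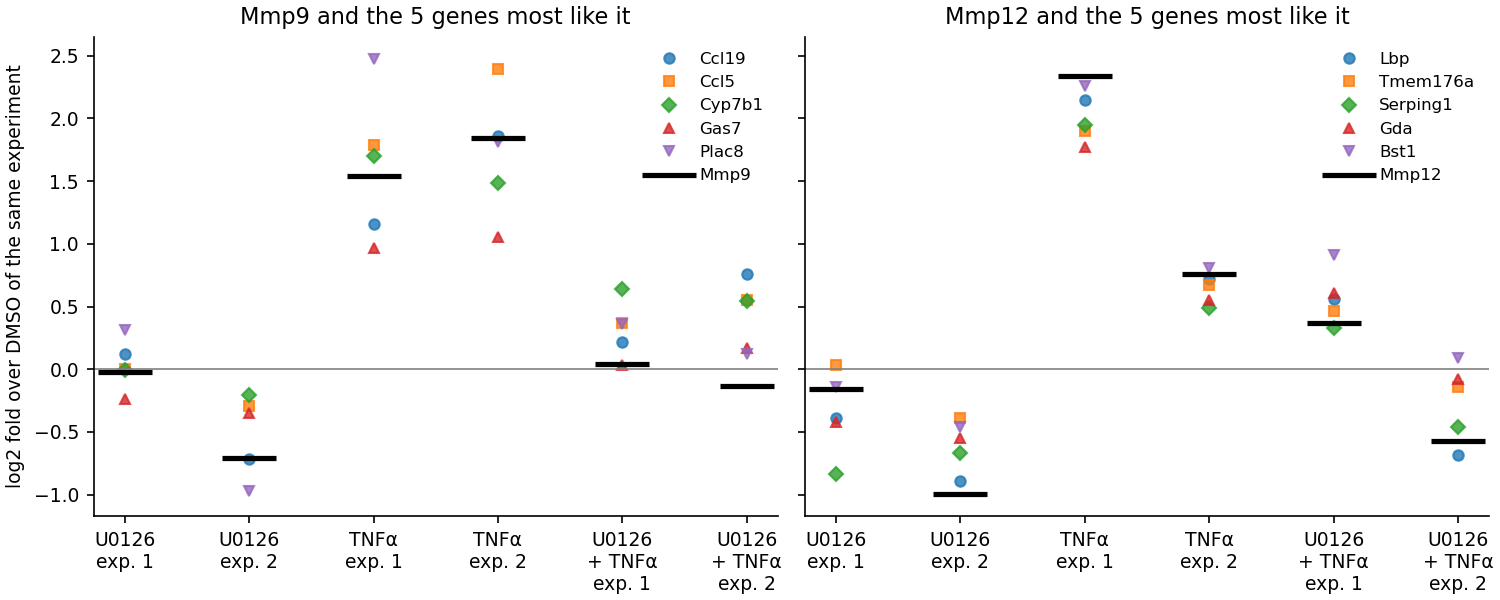
Log2 fold over the DMSO array of the same experiment for Mmp9 and Mmp12 (black bars) and the 5 genes nearest to each (symbols), in 3 treatments and 2 experiments. Lbp lies within 0.23 of Mmp12 throughout, and the 5 genes near Mmp12 all have their larger fold with TNFα in experiment 1.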

How the data were processed

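RNA of 8 cultures was hybridized to 8 arrays, 1 for each of 4 treatments in 2 experiments, and groups and replicate numbers were taken from the labels. The authors deposited 1 linear summary intensity per probe set, and per the labels it was made with RMA (version not given in the sources used here). The study's methods divide by the 50th percentile of each chip and by DMSO, which the deposited values do not show, as the array medians lay between 364.5 and 377.5. Here log2 was taken and the median of each array subtracted. Arrays hold no counts, and precision is limited by their number.

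Of 31099 probe sets, 57 controls were left out. A linear model was fitted with limma 3.58.1 (R 4.3.3) to all 8 arrays with terms for treatment and experiment (residual df 3, prior df 3.908), with Benjamini-Hochberg adjustment over 31042 probe sets and a threshold of 0.05, in 6 comparisons. Same-numbered arrays deviated together (r = 0.728 to 0.829), and the methods set each array against DMSO of its own experiment. The fit was tested on simulated data. Tables were made in Python 3.11.15 with pandas 2.3.3. Names came from the array annotation of 2016, with 20826 probe sets of 1 symbol for 14217 genes, and the probe set with the highest mean was taken for a gene.

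The members, lists and tests were chosen with earlier results of these data known. Named genes were all probe sets of Mmp9 and Mmp12, metalloproteinases that passed in any comparison and those next to Mmp12, all inhibitors, up to 4 members of other lists with the smallest adjusted p for TNFα, and the 5 genes most like each. Mmp2, Mmp7, Lcn2, Junb, Ets1, Egr1, Egr2, Adgre1, Mrc1, Csf1r, Ptprc, Itgam and Acp5 were named outside this rule, after their values were seen. Alternatives were quantile normalization, no centring, a filter on the lowest 40%, an offset of 50, no or a random replicate block, a trended or robust prior, only the arrays compared, each array left out, thresholds of 1.3-fold and 2-fold, any probe set of a gene, and Pearson's r.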

Additional observations from a re-analysis of the deposited data

How the results depend on the processing

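The replicate number marks the experiment and pairs the arrays. With no replicate block the log2 changes were as before, but no call held: with TNFα over DMSO 1.69 for Mmp9 (adjusted p = 0.149, limma) and 1.55 for Mmp12 (0.273), and with U0126 and TNFα over TNFα −1.73 for Mmp9 (0.9999). Probe sets called for TNFα went from 1611 to 25 without the block. With the experiment as a random block, Mmp12 with TNFα (1.55, 0.0650) and Mmp9 against TNFα (−1.73, 0.156) were no longer called. Likewise not called were, with an offset of 50, 1.35 (0.0546) and −1.36 (0.0723), and with a robust prior 1.55 (0.0532) and −1.73 (0.0545). With only the arrays compared, Mmp12 with TNFα was not called (1.55, 0.139), and 425 probe sets were, while Mmp12 passed with U0126 and TNFα over U0126 (0.48, 0.0247) and over TNFα (−1.65, 0.0188). Quantile normalization, no centring and a trended prior kept these calls, and the filter on the lowest 40% kept that of Mmp12 with TNFα and left no value for Mmp9.

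With each array left out in turn, the lone array of a group was assumed to vary like the others. The log2 change of Mmp9 was then 1.39 to 1.99 with TNFα over DMSO, −0.73 to 0.00097 with U0126 over DMSO, −0.045 to 0.69 with U0126 and TNFα over U0126, −2.03 to −1.44 over TNFα and −0.14 to 0.050 over DMSO. That of Mmp12 was 0.99 to 2.11 with TNFα, −1.14 to −0.019 with U0126, −2.14 to −1.16 with both agents over TNFα and −0.66 to 0.46 over DMSO. Signs turned for changes that were not called: for Mmp9 without U0126 replicate 2 (0.00097 and −0.045), without DMSO replicate 2 (0.050) and with quantile normalization (0.014), for Mmp12 without DMSO replicate 2 (0.46), and for 1369166_at, which ranged from −0.47 to 0.070 with U0126 over DMSO, from −0.060 to 0.48 with both agents over U0126 and from −0.071 to 0.090 over DMSO, without U0126 replicate 2 (0.070 and −0.060), DMSO replicate 1 (−0.053) and U0126 with TNFα replicate 2 (−0.071). The call of Mmp9 over TNFα was lost without either DMSO, either U0126 with TNFα or the first TNFα replicate. Probe sets called for TNFα numbered 461 to 1538, and for U0126 with TNFα over TNFα 0 to 416 in place of 78. The interaction was −1.74 to −1.001 for Mmp9, −0.98 to −0.44 for 1369166_at and −1.63 to −0.51 for Mmp12, was called for no member in any fit, and for 2 probe sets without TNFα replicate 2. The cause was not tested.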
